A study of Mus musculus with 43 samples.

Results

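WT spermatogonia sorted from the postnatal day 7 (P7) mouse testis were compared with the whole WT testis of the same age. The comparison rests on 5 of the 43 libraries of the series: 2 Smart-seq2 libraries made from sorted germ cells and 3 bulk RNA-seq libraries made from testis RNA. They were chosen by their labels (day 7, WT, RNA), not by any measured value. The study asks what the arginine methyltransferase Prmt1 does in male germ cells, and its other RNA libraries are 2 sorted and 3 testis libraries from conditional Prmt1 knockouts (Prmt1-dKO), which serve below as a repeat of the contrast. The mice were C57BL/6J. The labels give both WT groups the genotype WT and no treatment, and their protocol text has tamoxifen given for 3 days to WT and knockout samples alike. For the sort, the study's methods name Ddx4-CreERT2 mice, in which the Ddx4 locus drives EGFP and a tamoxifen-inducible Cre in germ cells, and describe the controls as heterozygous for the floxed Prmt1 allele, whereas the labels call those libraries WT. Each sorted library was made from pooled cells, after collagenase had freed the tubules of interstitial cells and trypsin had split the tubules. The labels also write spermatogonia as the cell type of the bulk libraries, although their RNA came from the testis. The study describes its replicates as biological, although no label ties a library to a mouse, and p-values measure the spread between these libraries.

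The seminiferous tubule of a testis at this age holds spermatogonia, which are the mitotic germ cells, and the Sertoli cells that surround them. Peritubular myoid cells wrap the tubule, and Leydig cells, fibroblasts, blood vessels and macrophages fill the space between tubules. Spermatogonia range from undifferentiated cells, which include the stem cells and depend on GDNF from their surroundings, to differentiating cells that carry the KIT receptor and later enter meiosis under retinoic acid and STRA8. Germ cells of all these stages express Ddx4, a germline RNA helicase whose locus carried the sort reporter.

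The groups differed in cell material and also in assay. The sorted-cell RNA was copied with oligo-dT and template switching, amplified, freed of short cDNA and cut by a transposase, whereas the testis RNA was selected by its poly(A) tail, fragmented and copied from random primers. Cell material, assay, library chemistry, sort and Cre genotype therefore cannot be told apart in any value below, nor can fewer cells of a type and less RNA per cell. The sorted libraries held 18547103 and 17788025 expected counts (reads assigned to genes by RSEM) and the testis libraries between 15196883 and 16598249. At this like depth 17106 and 15587 genes had a count in the sorted libraries, against 22341 to 22555 in the testis. Pearson's r of log2-scaled counts across the 16872 genes tested was 0.873 between the sorted libraries and 0.994 to 0.995 between testis libraries, and 33.5% of genes differed by more than 2-fold between the sorted pair. The biological coefficient of variation was 0.530 among sorted and 0.0684 among testis libraries.

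A gene was called when edgeR's quasi-likelihood test gave an adjusted p below 0.05 and the fold change was at least 2. By this rule 3155 of 16872 genes tested (18.7%) were higher in sorted spermatogonia and 5036 (29.8%) in whole testis, 48.5% in either direction. Values in both sorted libraries lay above all testis libraries for 5017 genes (29.7%) and below them for 8027 (47.6%), so separation of the groups was common by itself. The median log2 fold change of all genes tested, sorted minus testis, was -0.39, and list medians are read against it. Meiotic prophase genes were called higher in the sorted cells more often than any other list of the 22 examined, germline genes were called higher or not at all, and the lists of Sertoli, Leydig, peritubular, stromal, macrophage, endothelial and red blood cells were called mostly higher in the testis, with 2 of their genes, Rhox5 and Egfl7, called higher in the sorted cells. Markers of undifferentiated spermatogonia were, as a list, not higher in the sorted cells.

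**Figure D1:**
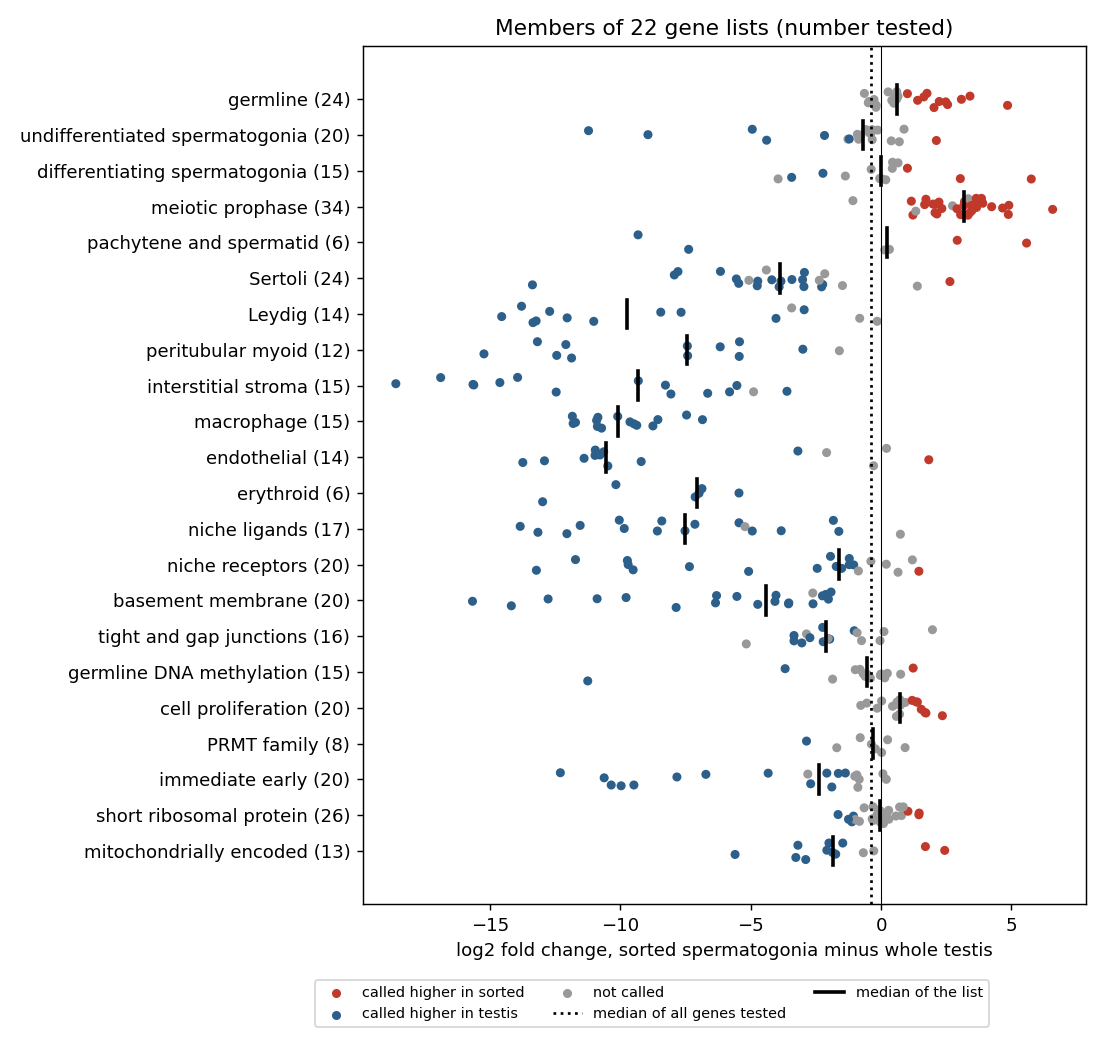
Log2 fold change (sorted spermatogonia minus whole testis, edgeR) of every tested member of 22 gene lists; each point is a gene, coloured by its call, the thick bar is the list's median and the dotted line the median of all genes tested (-0.39). Meiotic prophase genes lie to the right (median 3.19) and the somatic cell type lists to the left, with macrophage genes at a fitted median of -10.10 that rests on genes without a sorted count (-6.85 with these at the bound that 3 counts over the sorted pair allow).

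Germline genes encode RNA-binding, piRNA pathway and chromatin proteins of male germ cells. Of 24 tested, 11 were called higher in sorted spermatogonia and 0 in the testis, with a median log2 fold change of 0.63. Their summed level was 4880 and 4760 TPM (transcript abundance scaled for transcript length and library size) in the sorted libraries and 1400, 1610 and 1380 TPM in the testis libraries, 3.30 times higher in the sorted cells. The exact permutation test over libraries gave p = 0.2, which is the smallest two-sided p that 2 against 3 libraries allow, here and for every summed level below. The rise was uneven across the list. Tex101, a germ cell surface protein (chr7:24668007-24676675, mm10), stood at 1576 and 1591 TPM in the sorted libraries and at 59.7, 79.8 and 74.9 TPM in the testis, a log2 fold change of 4.85 ± 0.16 (SE) with adjusted p = 0.000527. Fkbp6, a piRNA pathway co-chaperone (chr5:135291704-135350044), stood at 783 and 786 TPM against 164, 181 and 173 TPM, a log2 fold change of 2.55 ± 0.08. Rhox13, Gtsf1, Ddx25, Tdrkh, Rnf17, Mov10l1, Usp26, Tex15 and Stk31 were also called, with log2 fold changes from 3.41 (Rhox13) down to 1.01 (Stk31).

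The best-known germ cell markers on the list moved little. Ddx4, which marks the sorted cells (chr13:112598333-112652475), stood at 80.8 and 117 TPM in the sorted libraries and at 85.2, 98.3 and 81.9 TPM in the testis, so the TPM of the groups overlapped, and it was not called (log2 fold change 0.49 ± 0.18, adjusted p = 0.0701). Its adjusted p was between 1.1e-05 and 0.576 over the alternative settings, and it reached 2-fold under none of them. Dazl, an RNA-binding protein needed for germ cell development, stood at 323 and 368 TPM against 242, 281 and 210 TPM and was not called (0.27 ± 0.12, adjusted p = 0.121). Mael, a piRNA pathway protein, stood at 169 and 187 TPM against 143, 155 and 150 TPM, which passed the adjusted p (0.00568) but not 2-fold (0.60 ± 0.09). Tdrd1, a Tudor scaffold of piRNA granules, was lower in the sorted cells at 15.1 and 16.2 TPM against 27.2, 30.6 and 24.6 TPM, also under 2-fold (-0.49 ± 0.12, adjusted p = 0.024). Piwil2, the PIWI protein of these cells, stood at 67.7 and 71.7 TPM against 81.0, 88.9 and 65.9 TPM, with overlapping groups. Log2 fold changes rest on counts and TPM also divides by transcript length, so the measures can differ in size for a gene.

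Meiotic prophase genes build the chromosome axis and synaptonemal complex and carry out recombination. All 34 were tested, 30 were called higher in the sorted cells and 0 in the testis, with a median log2 fold change of 3.19. Their summed level was 4010 and 3850 TPM in the sorted libraries against 559, 653 and 605 TPM in the testis, 6.49 times higher. Syce3, a central element protein of the synaptonemal complex (chr15:89390174-89410503), stood at 569 and 490 TPM against 27.6, 26.99 and 29.5 TPM (log2 fold change 4.88 ± 0.16, adjusted p = 0.000527). Meiob, a recombination factor that binds single-stranded DNA (chr17:24804289-24839788), had the largest fold change of the list, at 12.8 and 17.8 TPM against 0.14, 0.14 and 0.31 TPM (6.58 ± 0.59, adjusted p = 0.00162). Both sorted libraries were above all testis libraries for each. The Meiob difference was not found in the Prmt1-dKO libraries described further on, where it stood at 0.14 and 0.31 TPM in sorted cells and 0.80, 0.98 and 0.12 TPM in the testis (-1.14, edgeR adjusted p = 0.308). Of the axis and synapsis genes that open the list, Sycp3 stood at 207 and 185 TPM against 54.4, 62.8 and 55.5 TPM (2.14 ± 0.12) and Sycp1 at 288 and 289 TPM against 37.5, 52.3 and 38.2 TPM (2.07 ± 0.14). Sycp2 stood at 59.4 and 46.9 TPM against 8.45, 9.77 and 8.32 TPM (1.67 ± 0.13). The meiotic cohesin Rec8 rose least of these, at 19.3 and 38.6 TPM against 14.2, 17.5 and 15.5 TPM (1.22 ± 0.37, adjusted p = 0.0456), and without sorted replicate 2 its log2 fold change was 0.51, under the threshold. Over the alternative settings without the replicate block, between 25 and 32 members of the list were called.

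The telomere attachment genes Terb1, Terb2 and Majin were called with log2 fold changes of 4.66, 4.90 and 4.24. The mismatch-repair relatives Msh4 and Msh5, which stabilise crossover intermediates, were called with 3.65 and 3.66. Mlh3, Mei4, Spo11 and Rnf212 were not called. Mlh3 was the one member lower in both sorted libraries, at 5.41 and 2.86 TPM against 12.2, 12.5 and 11.5 TPM (adjusted p = 0.0536). Spo11, the enzyme that makes meiotic double-strand breaks, stood at 18.9 TPM in 1 sorted library and 0.09 TPM in the other. Gm4969, since named Meiosin after its part in meiotic entry with STRA8, stood at 80.1 and 57.8 TPM against 7.14, 7.75 and 7.05 TPM (log2 fold change 3.46). Stra8 itself stood at 131 and 62.9 TPM in the sorted libraries and at 95.1, 139 and 132 TPM in the testis, with overlapping groups and a log2 fold change of 0.01 ± 0.27 (adjusted p = 0.968), whose sign turned with the scaling.

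**Figure D2:**
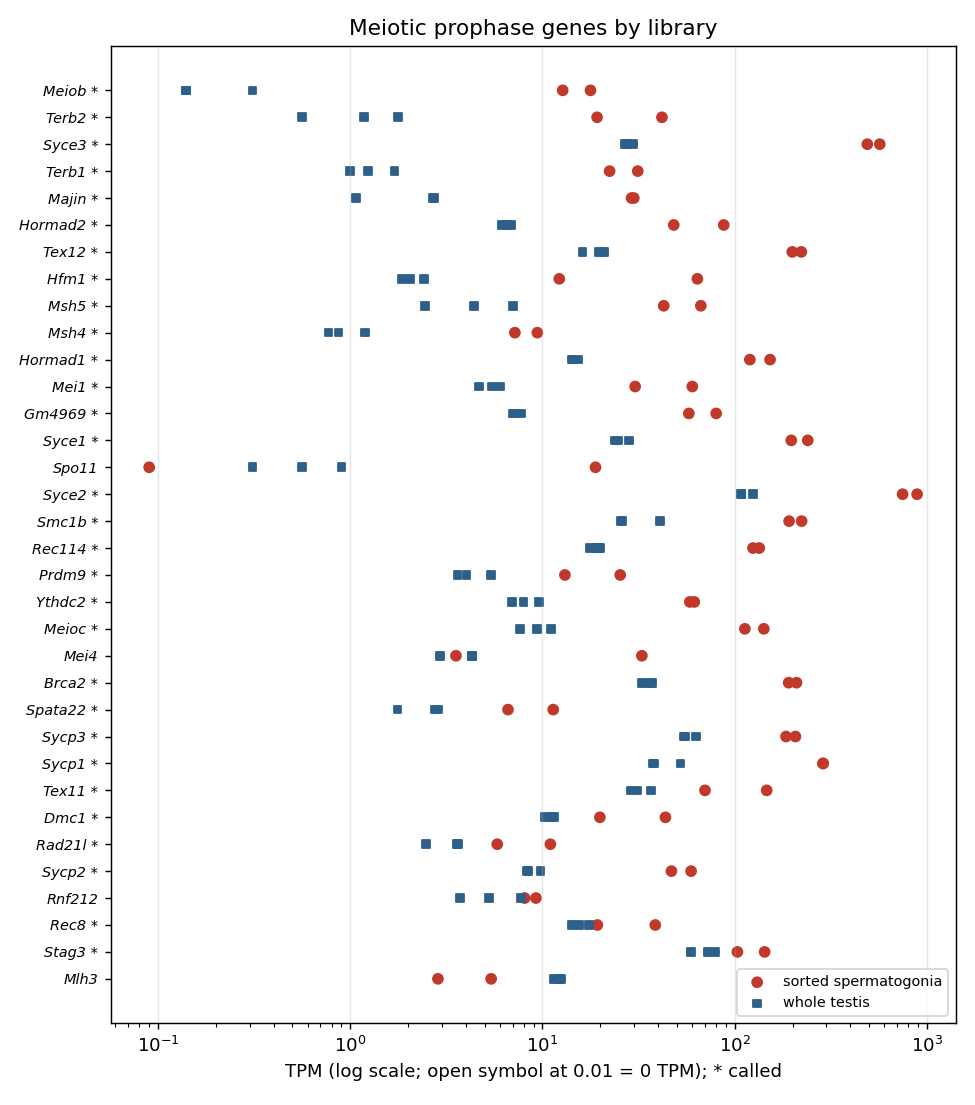
TPM (log axis) of the 34 meiotic prophase genes in the 2 sorted (circles) and 3 testis (squares) libraries, ordered by log2 fold change; a star marks a called gene. The sorted libraries lie to the right for nearly every gene, Spo11 splits the sorted pair (18.88 and 0.09 TPM) and Mlh3 runs the other way.

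Because the meiotic genes moved together, their promoters were searched for CACGTG, a palindromic E-box hexamer that reads the same on both strands. Promoters here run from 250 bases before to 50 after the RefSeq start (GRCm38.p6), and 24 of the 30 called meiotic genes matched the promoter table. A gene with several promoters was counted once if any of them held the letters. Of the 24 genes, 7 held the hexamer, and 4 of 9 matched germline genes did (Fkbp6, Stk31, Ddx25 and Mov10l1). Of the lists higher in the testis, 2 of 10 matched Sertoli genes (Ctsl and Fshr) and 0 of 9 stromal genes held it. Counted the same way, 12.4% of all genes called higher in sorted cells, 8.83% of those called higher in testis, 11.4% of all tested genes and 8.09% of all genes in the table held it. The stretches around it are shown for the meiotic genes, with the hexamer in capitals, 5′ to 3′ on the strand of the gene. A match is a description of letters and not a bound site.
Hormad1, + strand of chr3:95559610-95559635: aagggtgcgcCACGTGccagtgacag
Hormad1, + strand of chr3:95559647-95559672: gcgcactgcgCACGTGctgaccggag
Sycp1, - strand of chr3:102936179-102936204: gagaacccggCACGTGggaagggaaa
Stag3, + strand of chr5:138280329-138280354: cgctggagccCACGTGacaggactgc
Syce2, + strand of chr8:84872160-84872185: tttcattcagCACGTGctcggggcgg
Tex12, - strand of chr9:50561346-50561371: gcgagactgtCACGTGgctcgcgcgc
Rec114, - strand of chr9:58741563-58741588: cgtcagctatCACGTGgaggcgggct
Sycp3, + strand of chr10:88459513-88459538: cgttggctccCACGTGagaacgggca
Sycp3, + strand of chr10:88459534-88459559: gggcatggagCACGTGctaggaggcg

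Every hexamer shown begins before the annotated start, between 19 bases (Rec114) and 170 bases (Stag3) upstream. TCCCGC or its reverse complement GCGGGA was found for 17 of the 24 matched meiotic genes and for 1 of 9 matched germline, 2 of 10 Sertoli and 1 of 9 stromal genes, against 40.1% of genes called higher in sorted cells, 36.2% in testis and 38.8% of all tested genes. AAGGTCA on either strand was found for 4.44% of genes called higher in sorted cells and for 3.97% of all genes tested. For AGATAA the shares were 7.79% and 7.96%. For ACAATGG they were 2.02% and 2.56%. Promoters of genes called higher in sorted cells held a median of 21 CG dinucleotides, those called higher in testis 15 and all tested genes 19.

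Markers of undifferentiated spermatogonia did not follow the meiotic genes. Of 20 tested, 1 was called higher in sorted cells, 6 in the testis and 13 not at all, with a median log2 fold change of -0.68. The share called higher in the testis was close to the 29.8% of all genes tested. Their summed level was 223 and 193 TPM in the sorted libraries, below the 450, 458 and 427 TPM of the testis. Gfra1, the GDNF co-receptor, stood at 9.52 and 19.8 TPM against 11.3, 12.8 and 8.51 TPM, with overlapping groups (log2 fold change -0.39 ± 0.33, adjusted p = 0.363). Ret, which signals with it, was called higher in the testis at 6.72 and 6.42 TPM against 19.1, 19.8 and 17.1 TPM (-1.22 ± 0.14, adjusted p = 0.0028). Zbtb16, a transcription factor of stem and progenitor cells, stood at 24.7 TPM in 1 sorted library and 0.83 TPM in the other, against 24.8, 28.3 and 21.8 TPM. Id4, an inhibitor of helix-loop-helix factors, split the sorted pair the other way, at 0.39 and 5.18 TPM against 5.71, 5.12 and 4.54 TPM. Etv5, a GDNF-responsive factor, stood at 4.63 and 13.3 TPM, below 21.1, 20.8 and 18.5 TPM, without a call (adjusted p = 0.192).

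Taf4b, a germ cell form of a TFIID subunit, ran against the list at 57.1 and 61.3 TPM compared with 17.2, 18.4 and 14.9 TPM (2.12 ± 0.10, adjusted p = 0.000676). The members called higher in the testis were Ret, Nanos2, Bcl6b, Tspan8, Bmi1 and Ddit4. In the Prmt1-dKO libraries Nanos2 was called the other way (2.84), Ddit4 was again called higher in the testis (-1.46), and Ret (0.41), Bcl6b (-0.57), Tspan8 (-0.21) and Bmi1 (-0.61) were not called. These calls depend on the sorted libraries: 13 members were called higher in the testis without sorted replicate 1 and 8 without sorted replicate 2, where the lone sorted library was assumed to vary like the testis libraries. Relative to genes of like length the median of the list was 0.04, since its genes are long (median 3102 bases), and length is described further on.

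Genes of differentiating spermatogonia were divided. Of 15 tested, 3 were called higher in sorted cells and 2 in the testis, with a median log2 fold change of 0.01. The shares over all genes tested were 18.7% and 29.8%, the first close to the share of this list. Kit, the receptor of differentiating spermatogonia, stood at 73.0 and 57.4 TPM against 52.2, 54.6 and 47.4 TPM, above every testis library but under 2-fold (0.65 ± 0.15, adjusted p = 0.0177). Sohlh1, a helix-loop-helix factor of this stage, was called at 185 and 115 TPM against 89.7, 102 and 95.2 TPM (1.01 ± 0.23, adjusted p = 0.0188), a call at the 2-fold limit that DESeq2's size factors (0.95) and most other settings lost. Its partner Sohlh2 split the sorted pair, at 41.8 and 1.73 TPM against 36.3, 38.9 and 32.4 TPM. Prss50, a testis serine protease (chr9:110857967-110864629), had the largest change of the list at 554 and 584 TPM against 11.4, 14.3 and 14.6 TPM (5.76 ± 0.16, adjusted p = 0.000527). The X-linked homeobox gene Esx1 followed at 195 and 195 TPM against 26.4, 33.5 and 30.5 TPM (3.04). Sox3, a transcription factor of progenitor spermatogonia, was called higher in the testis at 6.72 and 4.94 TPM against 72.4, 87.2 and 78.0 TPM (-3.43 ± 0.22). The cyclin Ccnd2 was also called higher in the testis by counts (-2.23 ± 0.14), although its TPM overlapped between groups at 94.6 and 129 against 130, 113 and 96.9.

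Later germ cells are not yet formed at this age. Of 20 genes of pachytene spermatocytes and spermatids, 6 had enough counts to be tested. The protamine and transition protein genes Prm1 and Tnp2 were at 0 TPM in all 5 libraries, and Prm2 and Tnp1 were at 0 in both sorted libraries and reached at most 2.76 TPM in a testis library. The summed level of the list was 22 and 20.9 TPM in the sorted libraries and 11.3, 17.2 and 15.8 TPM in the testis, so the high level of meiotic prophase genes was not shared by genes of later stages. Oaz3 and Zpbp were called higher in the sorted cells and Hspa1l and Tssk1 in the testis, all at low levels. In the Prmt1-dKO libraries Oaz3 was not called (-0.42) and Tssk1 was called higher in the sorted cells (1.89).

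Somatic cell markers were lower in the sorted cells. Sertoli cell genes were called higher in the testis in 17 of 24 cases and in the sorted cells in 1, with a median log2 fold change of -3.88. Their summed level was 483 and 621 TPM in the sorted libraries and 9590, 9310 and 10000 TPM in the testis, 17.5 times higher in the testis. Amh, the Sertoli hormone that regresses the Müllerian ducts (chr10:80805243-80807648), stood at 2.44 and 1.79 TPM against 686, 567 and 721 TPM (-7.93 ± 0.28, adjusted p = 0.000527). Sox9, the factor that sets Sertoli fate, stood at 8.97 and 9.54 TPM against 88.0, 92.5 and 87.6 TPM (-2.96 ± 0.09), and Wt1 at 20.9 and 15.2 TPM against 202, 217 and 183 TPM (-3.42 ± 0.32). Cldn11, a tight junction claudin of Sertoli cells, stood at 57.2 and 21.2 TPM against 226, 240 and 239 TPM (-2.24 ± 0.48, adjusted p = 0.0159). Sertoli transcripts thus remained measurable in both sorted libraries, with Clu at 118 and 110 TPM, and their part in the other comparisons was not tested. The homeobox gene Rhox5 ran the other way at 11.2 and 10.4 TPM against 1.12, 2.35 and 3.99 TPM (2.64 ± 0.66, adjusted p = 0.0258).

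Markers of cells outside the tubule had lower medians still. Leydig genes were called higher in the testis in 11 of 14 cases, with a median log2 fold change of -9.73, or -8.06 when genes at 0 in both sorted libraries are set to the bound that 3 counts over the sorted pair allow. The steroid enzymes Cyp11a1 and Cyp17a1 and the hormone Insl3 had no count in either sorted library and stood at 76.0 to 91.8, 64.8 to 88.6 and 277 to 339 TPM in the testis, at least 1230-fold, 899-fold and 835-fold higher there. Star, which carries cholesterol into mitochondria, was not called, at 6.97 and 0.12 TPM against 15.3, 22.1 and 29.03 TPM (adjusted p = 0.0905). The adrenodoxin gene Fdx1 and the lipoprotein receptor gene Scarb1 kept most of the Leydig total of 174 and 127 TPM in the sorted libraries, and neither was called.

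Peritubular myoid genes were called higher in the testis in 11 of 12 cases (median -7.43) and stromal genes in 14 of 15 (median -9.31, or -8.93 at the bound). Smooth muscle actin, Acta2, stood at 5.41 and 0 TPM against 528, 545 and 572 TPM (-7.43 ± 1.71, adjusted p = 0.0198). Its partners Tagln and Cnn1 stood at 2.54 and 4.61 TPM and at 0 in the sorted libraries, against 179 to 202 and 30.9 to 36.3 TPM. Smooth muscle myosin, Myh11, had no sorted count and was at least 3320-fold higher in the testis. The collagen gene Col1a2 (chr6:4504814-4541544) had no count in either sorted library and stood at 864, 929 and 915 TPM in the testis. By counting error alone it was at least 34700-fold higher there, the largest bound among the genes described. In the Prmt1-dKO libraries described further on, where the sorted cells held counts of it, its log2 fold change was -8.8. The fibroblast genes Dcn and Tcf21 were at least 4370-fold and 1360-fold higher in the testis. Pdgfra, a receptor of stromal and Leydig progenitor cells, stood at 3.34 and 0 TPM against 101, 104 and 84.4 TPM (-6.65 ± 1.70, adjusted p = 0.0271), and Lum at 0.06 and 0 TPM against 23.1, 28.9 and 27.04 TPM.

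Macrophage genes were called higher in the testis in 15 of 15 cases, and 14 of those 15 had no count in either sorted library, among them Csf1r, Cd68, Adgre1 and C1qa. Their sum was 0.19 and 0 TPM in the sorted libraries against 216, 188 and 218 TPM. With the 3-count floor the C1qa level in the testis (24.98, 20.01 and 27.8 TPM) was at least 146-fold higher and that of Csf1r (8.25, 9.34 and 10.5 TPM) at least 293-fold higher. Endothelial genes were called higher in the testis in 10 of 14 cases. The junction genes Pecam1 and Cdh5 and the receptors Tie1 and Tek had no sorted count, and Cdh5, at 42.6, 44.5 and 36.6 TPM in the testis, was at least 1190-fold higher there. Egfl7, which is expressed by endothelium and also by germ cells, was called higher in the sorted cells at 102 and 123 TPM against 54.4, 53.1 and 64.96 TPM (1.83 ± 0.18, adjusted p = 0.002). Hemoglobin and other erythroid genes were called in 6 of 6 cases. The beta-globin Hbb-bs stood at 15.7 and 28.8 TPM against 1169, 1773 and 1161 TPM and Hba-a2 at 0.43 and 1.11 TPM against 1122, 1759 and 1049 TPM, with the caution that near-identical globin copies share reads.

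**Figure D3:**
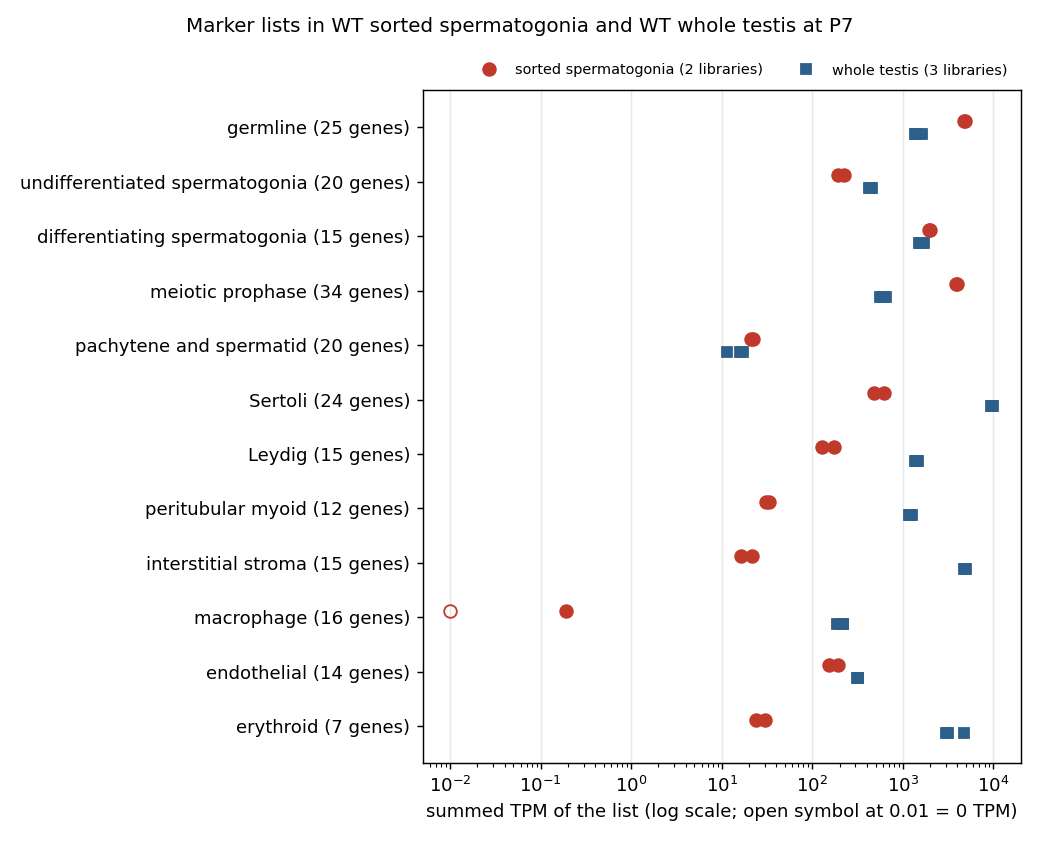
Summed TPM (log axis) of each cell type list and of the meiotic prophase list in every WT library; circles are the 2 sorted and squares the 3 testis libraries. Germline and meiotic sums were higher in sorted cells, undifferentiated spermatogonia genes lower (223 and 193 TPM against 427 to 458 TPM), and macrophage genes reached 0.19 and 0 TPM.

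The ligands that reach spermatogonia from their surroundings were mostly called higher in the testis. Of 17 niche ligands tested, 15 were called higher in the testis and 0 in the sorted cells, with a median log2 fold change of -7.52 (-5.22 at the bound). Gdnf, the growth factor that maintains stem spermatogonia, had no sorted count and stood at 16.1, 12.8 and 12.8 TPM in the testis, at least 364-fold higher. Kitl, the ligand of KIT, stood at 12.8 and 8.96 TPM against 113, 123 and 89.4 TPM (-5.45 ± 0.35, adjusted p = 0.000944). Fgf9 and Fgf2 were called higher in the testis at 0.77 to 1.25 and 7.96 to 10.5 TPM, with Fgf9 at 0 and Fgf2 at 1.55 and 6.30 TPM in the sorted libraries. Jag1, a Notch ligand, was the one member above all testis libraries, at 14.0 and 11.8 TPM against 10.4, 10.5 and 9.95 TPM, under 2-fold (0.74, adjusted p = 0.0167).

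The receptors gave a smaller difference. Of 20 tested, 14 were called higher in the testis and 1 in the sorted cells, with a median of -1.62, which came to -0.44 relative to genes of like length. Fgfr1, a fibroblast growth factor receptor, stood at 31.6 and 14.2 TPM against 54.6, 53.7 and 51.1 TPM (-1.05 ± 0.32, adjusted p = 0.0468). Fgfr3, the receptor of that family found in spermatogonia, was called higher in the sorted cells at 8.40 and 38.8 TPM against 5.41, 7.05 and 5.27 TPM (1.45 ± 0.32, adjusted p = 0.0181), with a wide gap between the sorted libraries. Gfra1, Kit, Acvr2b, Igf1r and Bmpr1b were not called.

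Basement membrane genes were called higher in the testis in 19 of 20 cases (median -4.40). Of the laminin alpha chains, Lama2 (106 to 119 TPM in the testis) and Lama4 (13.9 to 16.9 TPM) had no sorted count and were at least 4520-fold and 606-fold higher in the testis. Lama1 stood at 0.04 and 0 TPM against 43.3, 41.2 and 47.1 TPM, and Lama5 at 3.26 and 6.30 TPM against 18.99, 18.5 and 18.7 TPM (-2.12 ± 0.60, adjusted p = 0.0366). The laminin receptor subunit Itga6, which is also used to enrich spermatogonia, was called higher in the testis at 8.64 and 5.77 TPM against 110, 113 and 96.8 TPM (-4.03). Of 16 tight and gap junction genes, 8 were called higher in the testis and 0 in the sorted cells (median -2.13). Ocln stood at 8.79 and 8.90 TPM against 41.4, 41.0 and 39.5 TPM (-1.97 ± 0.13) and Cldn12 at 6.96 and 15.01 TPM against 31.1, 30.7 and 19.9 TPM (-1.03 ± 0.23). Cldn3 stood at 7.25 and 25.2 TPM against 3.35, 5.04 and 7.41 TPM and Cldn5 at 0 and 4.28 TPM against 18.4, 17.8 and 23.3 TPM, and neither was called.

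Regulators of germline DNA methylation showed few calls. Of 15 tested, 1 was called higher in sorted cells, 2 in the testis and 12 not at all (median -0.53, which was 0.64 relative to genes of like length). Over all genes tested, 18.7% were called higher in sorted cells and 29.8% in the testis, 48.5% in either direction. The maintenance enzyme Dnmt1 stood at 118 and 91.8 TPM against 115, 113 and 96.7 TPM (-0.41 ± 0.11, adjusted p = 0.029, under 2-fold). The de novo enzyme Dnmt3a stood at 164 and 176 TPM, above 54.6, 53.0 and 51.2 TPM, while its counts gave a log2 fold change of -0.53 ± 0.11, so the direction turned with the unit. Dnmt3b stood at 31.2 and 21.9 TPM against 32.6, 37.1 and 28.6 TPM, with overlapping groups (-0.03 ± 0.18, adjusted p = 0.916). The cofactor Dnmt3l, low in every library, was called higher in the testis at 0.14 and 0 TPM against 1.03, 0.90 and 2.17 TPM. Hells, a chromatin remodeler that assists DNA methylation, was called higher in the sorted cells at 341 and 399 TPM against 84.2, 109 and 75.9 TPM (1.23 ± 0.10, adjusted p = 0.00136).

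Genes of dividing cells leaned towards the sorted cells. Of 20 tested, 7 were called higher there and 0 in the testis, with a median of 0.71. The called genes were Rrm2, Birc5, Cdc20, Bub1, Tyms, Cdca8 and Mcm5, from 2.35 (Rrm2, which makes deoxynucleotides) to 1.19 (Mcm5, a replication helicase subunit). Top2a stood at 335 and 375 TPM against 171, 163 and 150 TPM and Ccna2 at 129 and 154 TPM against 94.0, 90.2 and 77.3 TPM, both past the adjusted p and under 2-fold (0.93 and 0.71). Ccnb1 stood at 224 and 139 TPM against 129, 149 and 125 TPM, and Mki67, a long transcript, at 13.1 and 26.5 TPM against 43.3, 43.8 and 35.5 TPM, without calls.

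Among the 8 arginine methyltransferase genes tested, 1 was called, Carm1, higher in the testis at 20.8 and 6.27 TPM against 62.0, 52.9 and 53.1 TPM (-2.86 ± 0.14, adjusted p = 0.000674). Prmt1, the gene the study is about (chr7:44975989-44986568), was the most abundant of the family in every library. It stood at 350 and 239 TPM in the sorted libraries, below the 652, 604 and 638 TPM of the testis, and was not called by counts (-0.37 ± 0.19, adjusted p = 0.172). On the log2(TPM + 1) scale limma gave -1.12 with adjusted p = 0.00459, so the call depends on the unit. The study's methods describe the sorted controls as heterozygous for the floxed Prmt1 allele in mice with the inducible Cre. The part of this genotype in the Prmt1 level cannot be told apart from cell material or assay. Prmt2 stood at 0 and 21.2 TPM against 46.2, 45.0 and 44.5 TPM, and Prmt3 at 40.2 and 18.2 TPM against 38.8, 37.3 and 31.6 TPM. Prmt5, which makes symmetric dimethylarginine, stood at 55.6 and 49.4 TPM against 56.7, 57.5 and 52.4 TPM, a log2 fold change of 0.25 (adjusted p = 0.12).

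The 10 largest changes towards sorted cells among well-counted genes were all predicted, pseudogene or non-coding gene models: Gm10222, 4833421G17Rik, Gm49361, Gm12481, Gm37954, Gm43019, Gm37219, Gm43018, C230071H17Rik and Gm49628. Of these, 8 had no count in any testis library, and they were at least 312-fold (Gm49628) to 1390-fold (Gm10222) higher in the sorted cells. Gm10222 is a mitochondrial copy on chromosome 1 that shares its sequence with mitochondrial transcripts, and counting by strand is not stated, so reads of overlapping or near-identical genes cannot be told apart for this group. The 10 largest changes towards the testis were Col1a2, Col6a1, Bgn, AU015836, Lama2, Ltbp3, Mfap4, Dcn, Col6a3 and Sema7a, mostly matrix genes, all with no sorted count and at least 3590-fold (Sema7a) higher.

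Restricting the same rule to protein-coding genes, a choice made after these values were seen, brought forward histone genes. Hist1h2aa and Hist1h2ba, the testis forms of histones H2A and H2B that lie head to head (chr13:23934462-23934851 and chr13:23933773-23934156), stood at 441 and 331 TPM and at 154 and 152 TPM in the sorted libraries. No testis library was above 0.82 TPM for either, and their log2 fold changes were 9.62 ± 0.29 and 8.78 ± 0.81. Hist1h2ap stood at 3483 and 3274 TPM against 0, 9 and 3.58 TPM. Of 45 tested genes of the histone clusters, 28 were called higher in sorted cells and 3 in the testis, with a median log2 fold change of 2.53. Their copies are near identical and short (median 586 bases), and most replication histone mRNAs lack a poly(A) tail. Other protein-coding leaders were Rpgrip1, at 166 and 187 TPM against 1.82, 0.92 and 0.47 TPM (7.84 ± 0.46), the POU factor Pou5f2, at 8.39 and 8.65 TPM against 0, 0 and 0.25 TPM, and Meikin, a meiotic kinetochore protein, at 2.71 and 11.04 TPM against 0, 0.17 and 0.08 TPM.

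The most abundant transcripts overlapped in kind between the groups, with a ribosomal RNA gene and mitochondrial genes in both. In sorted cells they were the ribosomal RNA gene CT010467.1 (33125 and 20885 TPM against 9984, 8902 and 8716 TPM), the mitochondrial copy Gm29216 (15057 and 15511 TPM), mt-Rnr2 (7656 and 6873 TPM), mt-Atp6 (8474 and 6373 TPM) and an identifier without a name in the annotation used, ENSMUSG00000118642.1. In the testis they were mt-Co2 (13818, 15102 and 14548 TPM), mt-Co1, CT010467.1, Gm10925 and Eef1a1. Eef1a1, a translation elongation factor that every cell uses, was called higher in the testis at 679 and 676 TPM against 7530, 7800 and 7370 TPM (-3.37 ± 0.07). The 13 mitochondrially encoded protein genes were called higher in the testis in 9 cases (median -1.86), with mt-Atp6 (1.70) and mt-Atp8 (2.44) called the other way, and copies in the nuclear genome share their reads. The direction of mt-Atp8 turned with the unit, at 5100 and 2453 TPM against 5101, 5638 and 4589 TPM. Of 26 short ribosomal protein genes, 3 were called higher in sorted cells and 4 in the testis, with a median of -0.03, or -0.92 relative to genes of like length. On both log2 TPM scales 8 of them were called higher in the testis. Of 20 immediate early genes, which respond to tissue dissociation, 13 were called higher in the testis and 0 in the sorted cells (median -2.39), and their summed level was 209 and 163 TPM against 1130, 1120 and 1190 TPM. In the Prmt1-dKO libraries described further on, 5 of the same 20 were called higher in sorted cells and 5 in the testis, with a median of -0.04.

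Transcript length moved with the comparison. Length here is the RSEM gene length averaged over the WT libraries, so it depends in part on the transcript forms assigned in these libraries. Of 338 tested genes under 500 bases, 57.1% were called higher in sorted cells and 8.88% in the testis, with a median log2 fold change of 2.05. Of 2766 genes over 4000 bases, 7.45% were called higher in sorted cells and 40.2% in the testis, with a median of -1.25. The shares changed in step through the bins between, and the median of protein-coding genes fell likewise from 1.29 to -1.31. Genes called higher in sorted cells had a median length of 1567 bases, those called higher in testis 2700 and all tested genes 2326. The part of length in any list's result was not tested beyond subtracting the median of each gene's length bin. After that step, chosen with the data seen, the meiotic prophase median was 3.31, the germline median 1.05, the Sertoli median -3.88 and the basement membrane median -3.44. Gene models still to be tested by experiment, which the annotation calls TEC (48.2% of 436), and processed pseudogenes (41.4% of 423) were called higher in sorted cells more often than protein-coding genes (16.1% of 14640).

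**Figure D4:**
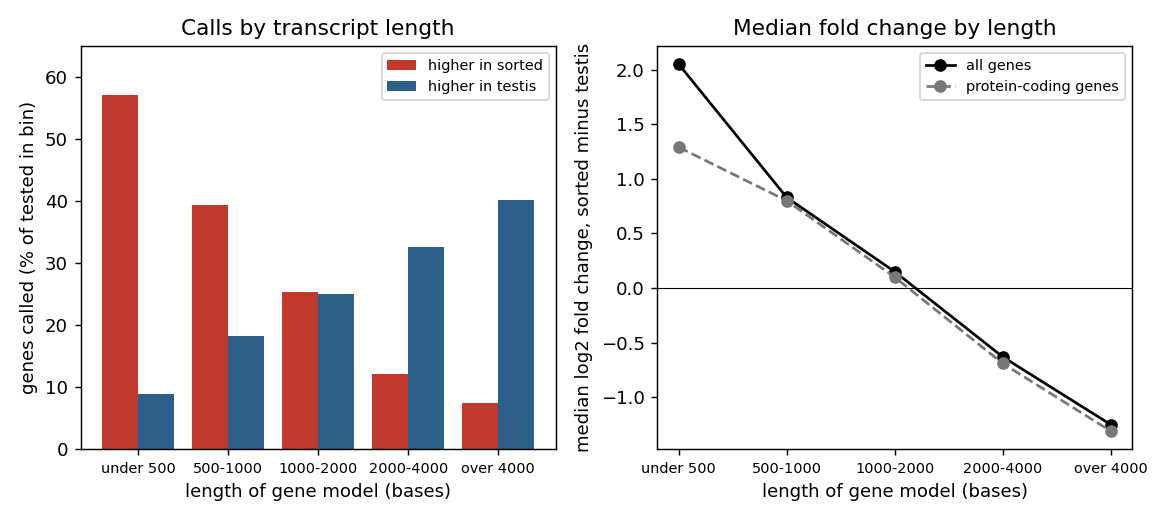
Left, percentage of tested genes called in each direction by RSEM gene length in bases, averaged over the WT libraries. Right, median log2 fold change per bin for all genes and for protein-coding genes. Calls towards sorted cells fall from 57.1% to 7.45% and calls towards testis rise from 8.88% to 40.2% with length.

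The sorted libraries disagreed on which genes they held. At most 1 count in one sorted library and at least 100 in the other was found for 974 of the 16872 genes (5.77%), 634 of them absent from replicate 2 and 340 from replicate 1, while 2 genes met the same rule between testis libraries and 16 between the Prmt1-dKO sorted libraries. Of the 974, 0 were called higher in sorted cells and 14 in the testis. Of the spermatogonial lists, Cdh1 (3.37 and 0 TPM), Plvap (8.26 and 0 TPM) and Upp1 (25.5 and 0 TPM) had this pattern and stood at 3.34 to 3.98, 5.04 to 6.60 and 11.4 to 17.6 TPM in the testis. Of the Sertoli list, Sox8 (0 and 15.5 TPM), Tsx (0 and 12.6 TPM), Gata1 (0.04 and 6.85 TPM) and Trf (0.11 and 5.58 TPM) were held by replicate 2. Gja1 (11.6 and 0 TPM), Cxcl12 (5.67 and 0 TPM), Col3a1 (7.76 and 0 TPM), Bmpr1b (8.26 and 0 TPM), Sfrp1 (2.69 and 0 TPM), Itga3 (3.47 and 0 TPM), Gjb2 (3.67 and 0 TPM), Ier3 (7.57 and 0 TPM) and Col4a2 (1.27 and 0.01 TPM) were held by replicate 1. Dnmt3c (0 and 3.46 TPM), the imprint regulator Zfp57 (0 and 7.44 TPM) and mt-Nd4l (0 and 65.1 TPM) were held by replicate 2. Of the 5036 genes called higher in testis, 2449 (48.6%) had at most 1 count in each sorted library.

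The contrast was repeated in 2 sorted and 3 testis libraries of Prmt1-dKO mice at P7, which took no part in the WT calls. There 3984 of 18588 genes (21.4%) were called higher in sorted cells and 5881 (31.6%) in testis, 53.1% in either direction. Among 16376 genes tested in both genotypes, 1952 were called higher in sorted cells in both, which is 65.9% of the WT calls and 63.3% of the Prmt1-dKO calls, and 27 WT calls were called the other way. For testis, 3369 were called in both, 69.3% of the WT and 65.1% of the Prmt1-dKO calls, and 128 went the other way. Germline genes were called higher in sorted cells in 16 of 24 cases (median 1.46), meiotic prophase genes in 22 of 34 with 2 called higher in testis (median 1.33), and cell proliferation genes in 13 of 20 (median 1.20). Ddx4 was called in this genotype (1.22, adjusted p = 0.000508). Undifferentiated spermatogonia genes were called higher in sorted cells in 3 of 20 cases and in testis in 2 (median 0.24). Somatic lists were again called mostly higher in the testis, with medians nearer 0 than in WT. The Prmt1-dKO sorted libraries had a count for more genes (21404 and 20194) than the WT sorted libraries (17106 and 15587). Their totals were lower, at 16969827 and 15610392 expected counts. The part of this gap in detection in the somatic medians was not tested. Macrophage genes were called higher in the testis in 10 of 15 cases and in sorted cells in 1, with a median of -1.67 against -10.10 in WT (-6.85 at the bound), and summed to 104 and 118 TPM in the Prmt1-dKO sorted libraries against 0.19 and 0 TPM in the WT ones. The medians were -3.98 against -9.73 for Leydig, -4.56 against -10.56 (-7.03 at the bound) for endothelial, -4.69 against -7.43 for peritubular, -6.74 against -9.31 for stromal, -4.49 against -7.05 for erythroid and -2.55 against -3.88 for Sertoli genes. The WT medians of these lists include genes with no sorted count, whose fitted values depend on the prior count. The genotype also differs, so the difference between the contrasts was tested by an interaction term over all 10 libraries: 3722 of 19608 genes (19.0%) passed an adjusted p of 0.05, Sycp1, Sycp2, Sycp3 and Meiob among them.

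**Figure D5:**
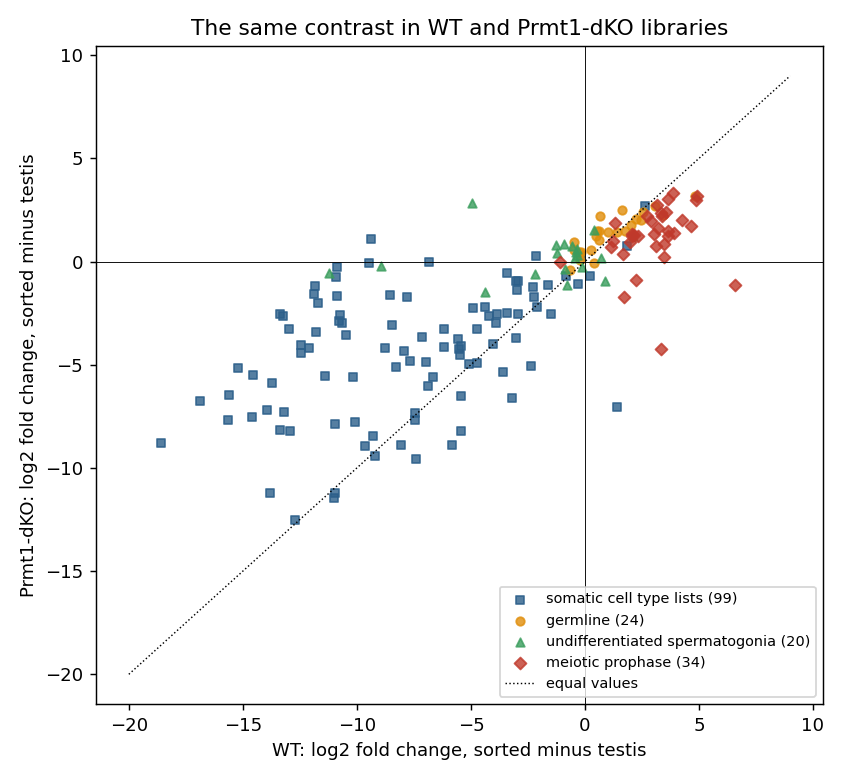
Log2 fold change (sorted minus testis) in WT (horizontal) and Prmt1-dKO (vertical) libraries for members of the somatic, germline, undifferentiated spermatogonia and meiotic prophase lists; the dotted line marks equal values. Somatic genes lie mostly below 0 on both axes and meiotic genes mostly above 0, with smaller meiotic values in Prmt1-dKO (median 1.33 against 3.19).

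Promoter chromatin gave a readout apart from RNA. The labels call the cells used for it spermatogonia. The study's methods describe tubule cells strained to remove Sertoli cells, and the study counted them as mostly germ cells. In the deposited CUT&Tag peak lists of WT P7 cells, a peak summit lay within 1000 bases of a start in every H3K4me3 list for 72.8% of genes called higher in sorted cells, 71.2% of those called higher in testis, 84.8% of those not called and 78.5% of all tested genes. H3K4me3 marks promoters in use or poised. For H3K27ac, a mark of active promoters and enhancers, the shares were 43.6%, 24.4%, 43.9% and 38%, so genes called higher in sorted cells were marked about as often as those not called, and genes called higher in testis less often, which was not tested. For H4R3me2a, the mark that Prmt1 writes, they were 3.30%, 2.13%, 3.95% and 3.29%. These rest on a peak in every list: counted in any of the 3 lists, the H4R3me2a shares were 34.8%, 34.9%, 40.5% and 37.8%, with no higher share for sorted cells than for testis. The depth behind the lists is unknown. None of 15 macrophage and none of 6 erythroid genes had an H3K4me3 peak in every list, whereas 17 of 24 germline, 19 of 34 meiotic prophase, 17 of 24 Sertoli and 14 of 15 stromal genes did. For H3K27ac in every list the counts were 10 of 24 germline, 10 of 34 meiotic prophase, 1 of 24 Sertoli and 0 of 15 stromal genes, or 18, 21, 9 and 5 in any list. The mark did not follow the direction of the lists throughout. In every list it was found for 8 of 16 junction genes, above the 38% of all tested genes, although 0 of them were called higher in sorted cells. The 10 of 34 meiotic prophase genes were below that 38%, while the 21 of 34 in any list were above the 58.1% of all tested genes. In every list the mark was also found for 3 of 20 undifferentiated and 1 of 15 differentiating spermatogonia genes and for 5 of 20 basement membrane genes.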

How the data were processed

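RNA of WT P7 mice was measured in 2 sorted and 3 testis libraries. Per the study's methods, reads were trimmed with fastp (0.23.2 in the submitters' processing notes) and aligned with STAR to mm10, and the authors deposited RSEM gene tables, of which the expected counts and the TPM were used. For RSEM, neither version nor annotation is given in the sources used here. Gene names and coordinates came from GENCODE vM21, which held 55141 of the 55401 identifiers. The authors called CUT&Tag peaks per library with MACS2 (2.1.0), and the deposited peak lists carry −log10 q values.

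Expected counts were rounded and tested in R 4.3.3 with edgeR 4.0.16 (filterByExpr, TMM, quasi-likelihood test, Benjamini-Hochberg adjustment). A gene was called at an adjusted p below 0.05 and at least 2-fold. Limma 3.58.1 on log2(TPM + 1) and log2(TPM + 0.1), limma-voom, DESeq2 1.42.0, other scalings and filters, protein-coding genes alone, all 10 RNA libraries and leaving out each library served as alternatives. The script was tested on simulated data. Fold bounds set genes at 0 in a group to 3 counts over that group and cover counting error only.

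Members and gene lists were chosen with earlier results of these data known. Genes were named by rule: the first 4 of each cell type or pathway list, Prmt1 and Ddx4, the 10 largest called changes per direction among genes with a mean of at least 50 counts, at least 10 counts in each library of the higher group and groups that do not overlap, the 5 most abundant genes per group, called members against their list's direction, and members with at most 1 count in one sorted library and at least 100 in the other. A gene that the rule names is not reported here. Other members named serve as examples and were chosen after their values were seen. Promoters came from RefSeq (GRCm38.p6) and matched by symbol 2028 genes called higher in sorted cells and 3543 called higher in testis, or 2021 and 3536 where promoters at identical positions were counted once.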

Additional observations from a re-analysis of the deposited data

Results flagged for a closer look

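The contrast of sorted cells with testis differed between WT and Prmt1-dKO libraries for 65 genes, 46 of them named by rule and 19 given as examples, by the interaction term of edgeR over all 10 RNA libraries at an adjusted p below 0.05, which 19.0% of all 19608 genes tested also passed. Values below are the WT minus Prmt1-dKO difference of the sorted minus testis log2 fold change. Genotype and the libraries' own quality cannot be told apart in these differences.

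Among germ cell genes the difference was positive for Sycp3 (0.77), Sycp1 (0.78), Sycp2 (1.23), Hormad1 (1.12), Syce2 (0.92), Syce3 (1.84), Terb1 (2.85), Gm4969 (2.56), Prss50 (2.85) and Tex101 (1.59), whose log2 fold change was larger in WT. It was 7.67 for Meiob and 5.94 for Oaz3, both called higher in sorted cells in WT and not called in Prmt1-dKO, and 7.54 for Spo11, which was not called in WT and differed between the WT sorted libraries. It was negative for Tyms (-0.91), Bmi1 (-1.62), Ddit4 (-2.99), Itga6 (-2.34), Tdrd1 (-1.13), Ret (-1.69), Sox3 (-1.65), Ccnd2 (-1.76), Ccna2 (-0.85), Dnmt1 (-0.80) and Dnmt3l (-5.27). Nanos2 (-7.81) and Tssk1 (-9.16) were called higher in the testis in WT and in the sorted cells in Prmt1-dKO, and Bcl6b (-10.55) and Tspan8 (-8.63) were called in WT alone. Tssk1, Bcl6b and Tspan8 had no count in either WT sorted library, so these sizes depend on the prior count. For Dnmt3l the sorted libraries stood at 0.14 and 0 TPM in WT and at 5.58 and 5.57 TPM in Prmt1-dKO.

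Somatic genes with counts in the WT sorted cells differed for Sox9 (-1.62), Clu (-1.61), Amh (-3.66), Kitl (-2.18), Hba-a2 (-4.63) and Lama1 (-5.78), each further below the testis in WT, and the other way for Tagln (2.73) and Fgf2 (3.24). The remaining somatic genes had no count in either WT sorted library, so the size of their difference depends on the prior count: Insl3 (-10.47), Myh11 (-9.94), Cnn1 (-10.21), Tcf21 (-6.62), Dcn (-9.06), Csf1r (-9.60), Cd68 (-9.32), C1qa (-8.02), Pecam1 (-5.71), Cdh5 (-7.76), Tek (-6.82), Hbb-bt (-9.58), Gdnf (-9.05), Fgf9 (-6.34), Lama2 (-8.30), Lama4 (-8.59), Col1a2 (-9.70), Col6a1 (-10.05), AU015836 (-9.38), Ltbp3 (-9.25), Mfap4 (-7.89), Col6a3 (-8.05) and Sema7a (-10.80). The Prmt1-dKO sorted libraries held counts of these genes, with Cd68 at 6.00 and 7.11 TPM and Csf1r at 1.39 and 2.09 TPM.

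Among the gene models and abundant RNAs the difference was 6.40 for 4833421G17Rik, 4.32 for Gm43019 and 4.06 for C230071H17Rik, and negative for the ribosomal RNAs CT010467.1 (-3.14) and mt-Rnr2 (-2.50). The elongation factor Eef1a1, which every cell uses, differed by -0.92. CT010467.1 stood at 67288 and 76440 TPM in the Prmt1-dKO sorted libraries.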

How the results depend on the processing

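Meiotic, germline and somatic list directions held under every setting run, while the sorted libraries limited the single genes. With 1 residual degree of freedom the replicate block called 0 genes in either direction and 0 members of every list, and it gave -1.97 for Bmpr1b, -2.47 for Dnmt3c, -0.17 for Prmt3, -1.28 for Tsx, -2.9 for Upp1 and -1.0 for the pachytene and spermatid median. Samples with a number in common share only that number (r of their deviations 0.0124 and 0.000876), so this pairing is no measure of weaker effects. Over all genes, calls for sorted cells and testis were 3219 and 6447 with DESeq2, 2493 and 4995 with limma-voom, 2676 and 5353 on log2(TPM + 1), and 3665 and 4726 with upper quartile factors.

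Log2 fold changes that changed sign were small, came from genes whose sorted libraries differed, or turned between counts and TPM. Prmt3 and Stra8 gave -0.06 and -0.06 with DESeq2, -0.05 and -0.05 with its size factors, -0.05 and -0.06 with all 10 libraries, -0.11 and -0.11 with genes detected in both sorted libraries or neither, and -0.03 and -0.04 without a filter or with a TPM of at least 1. Limma-voom gave -0.1 for Prmt3, -0.02 for Stra8, -2.24 for Bmpr1b, -2.68 for Dnmt3c, -1.57 for Tsx, -3.36 for Upp1 and -1.24 for the pachytene and spermatid median. On log2(TPM + 0.1) the values were -0.3 for Bmpr1b, 1.68 for Dnmt3a, -1.73 for Dnmt3c, 0.35 for Gfra1, -0.4 for Prmt3, -0.03 for Rpl38, -0.4 for Stra8, -1.55 for Tsx, -3.19 for Upp1, -0.53 for mt-Atp8, -0.32 for the differentiating median and -1.24 for the pachytene median, with 3 Prmt genes and 8 ribosomal protein genes called higher in testis. On log2(TPM + 1) they were 1.66 for Dnmt3a, -0.46 for Dnmt3c, 0.33 for Gfra1, -0.39 for Prmt3, -0.03 for Rpl38, -0.4 for Stra8, -0.19 for Tsx, -1.59 for Upp1, -0.53 for mt-Atp8 and -0.31 for the differentiating median, with 3 Prmt genes, 8 ribosomal protein genes and 1 pachytene gene called. Dnmt3b, Gjb2 and the ribosomal protein median were 0.09, 0.05 and 0.09 with library totals, 0.08, 0.06 and 0.08 with protein-coding genes, which left 1 DNA methylation gene called higher in testis, and 0.16, 0.11 and 0.16 with upper quartile factors, where Plvap was 0.02, Fdx1 0.03 and 2 ribosomal protein genes were called. Prmt5 was -0.08 on both log2 TPM scales. The pachytene median was -2.05 with DESeq2 and -2.64 without a filter, and 5 of its genes were then called higher in testis, 4 with all 10 libraries and 1 with a TPM of at least 1. Requiring detection in both sorted libraries or neither left 3 erythroid and 9 stromal genes called, since fewer were tested. Relative to length bins the medians were 0.12 for the PRMT family and 0.64 for DNA methylation. The cause of the other changes was not tested.

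Leaving out 1 library gave 3925 to 8321 genes higher in testis, with 8321 without sorted replicate 1 and 7736 without sorted replicate 2, where the lone sorted library was assumed to vary like the testis. Members called higher in testis ranged from 1 to 2 for the PRMT family, 1 to 5 for DNA methylation, 7 to 13 for junctions, 5 to 13 for undifferentiated spermatogonia, 7 to 12 for peritubular and 2 to 4 for pachytene genes. The pachytene median ranged from -4.2 to 1.08. Log2 fold changes ranged from -3.22 (without sorted replicate 1) to 4.27 for Spo11, -0.17 to 0.38 for Acvr2b, -0.45 to 0.01 for Fdx1, -8.46 to 2.13 for Bmpr1b, -10.37 to 0.15 for Cdh1, -0.3 to 0.09 for Dnmt3b, -8.39 to 1.08 for Dnmt3c, -8.81 to 0.89 for Gjb2, -3.45 to 0.25 for Id4, -9.76 to 0.8 for Plvap, -0.79 to 0.44 for Prmt3, -4.11 to 0.49 for Sohlh2, -0.44 to 0.25 for Stra8, -7.28 to 2.33 for Tsx and -9.95 to 1.36 for Upp1.

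For promoters of genes called higher in sorted cells and in testis, a peak in any list was found for 60.8% and 44.5% (H3K27ac), 75.9% and 76.4% (H3K4me3) and 34.8% and 34.9% (H4R3me2a). At q of at most 0.01 the shares were 17.8% and 6.38% for H3K27ac and 0.19% and 0.119% for H4R3me2a, and within 3000 bases 47.3% and 29.9%, 75.3% and 74.3%, and 4.95% and 4.37% for H3K27ac, H3K4me3 and H4R3me2a.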
